A study of Homo sapiens with 6 samples.

Results

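The DUSP, SPRY and SPRED genes include negative regulators of growth factor and stress signalling. They were taken from the table by symbol: DUSP followed by a number, SPRY1 to SPRY4 and SPRED1 to SPRED3. The rule found 31 of them among 58024 genes, 24 DUSP genes, 4 Sprouty genes and 3 SPRED genes. SPRY3 had 2 rows, since the gene lies in a region shared by chromosomes X and Y, and the row of the second copy was listed at 0 in each library. RNA-Seq compared C4-2B parental with enzalutamide resistant cells, with 3 libraries in each group. C4-2B is a castration resistant human prostate cancer line derived from LNCaP cells by passage in mice, and enzalutamide is an antagonist of the androgen receptor. The resistant cells were 1 pooled population that had outgrown enzalutamide raised from 1 to 20 µM over 6 months or more, and they were then kept in 5 µM. The parental cells were passaged alongside in dimethyl sulfoxide, given as 1% in the design text and as a lower share in the methods. Enzalutamide at 10 µM is named for the RNA extraction, and the wording does not settle whether the parental cells received it. Acquired resistance and the presence of the drug therefore cannot be told apart in this comparison. The labels do not say that the libraries came from separate cultures, so that the p values measure the spread between these libraries, which may be technical.

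Signals from growth factor receptors run through RAS, RAF and MEK kinases to the kinases ERK1 and ERK2, while stress signals run through related cascades to JNK and p38. The typical DUSP proteins, called MAP kinase phosphatases (MKPs), remove the phosphates that switch these kinases on. Sprouty and SPRED proteins act higher up and restrain the activation of RAS and RAF. Transcription of several of these inhibitors is itself induced by ERK activity, which closes a negative feedback loop, and DUSP6, SPRY2 and SPRY4 are widely read as transcripts of that loop. In prostate tissue, Sprouty genes have been studied as brakes on fibroblast growth factor signalling.

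Values were FPKM, the number of fragments of a transcript divided by its length and by the size of the library, so that levels can be set side by side between genes. Depth, estimated from the smallest steps in the values of single-transcript genes, ran from 13400000 to 20500000 reads per library. A single read over 2000 bases then adds 0.0272 to 0.0413 FPKM. The summed FPKM of 10 luminal prostate markers was 4227 to 5004 in the parental and 1234 to 1320 in the resistant libraries, and 9 of the 10 passed the test, 7 of them lower. Of 7 neuroendocrine markers, 5 were tested and all 5 were higher, with a sum of 6.88 to 10.7 against 190.1 to 212 FPKM. Of 6 stromal markers 5 were tested, with 2 higher and 1 lower and a sum of 8.04 to 10.9 against 8.34 to 15 FPKM. For 7 immune and endothelial markers the sum did not exceed 2.19 FPKM in any library, CD3E was listed at 0 in each, and of 3 tested 1 was lower. The part of these shifts in the results below was not tested. A value is an average over a culture, so that fewer cells with a transcript and less of it per cell cannot be told apart.

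Of the 31 genes, 29 reached a mean of 0.1 FPKM over the 6 libraries and were tested. DUSP13 and DUSP21 were listed at 0 in each library. Fold changes are given as log2(FPKM + 0.1) of resistant minus parental cells, fitted with limma across 24468 genes, and genes with a Benjamini-Hochberg adjusted p below 0.05 are counted as changed. By this test 18 of the 29 genes changed, 10 of them upward and 8 downward. Over all genes tested, 44.4% changed, 22.1% upward and 22.3% downward, so that a change by itself was common in this comparison. At least 2-fold changes were found in 10 of the 29 genes, 7 upward and 3 downward, against 28.5% of all genes. The parental and resistant values did not overlap in 19 of the 29, against 54.8% of all genes. The median log2 fold change of the 29 genes was 0.19, and −0.05 over all genes. With median-of-ratios scaling, which moved the median of all genes by 0.101, 11 genes were higher and 5 lower, so that 68.8% of the changes were upward in place of 55.6%. The same scaling raised the upward share of all changed genes from 49.7% to 55.3%.

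**Figure D1:**
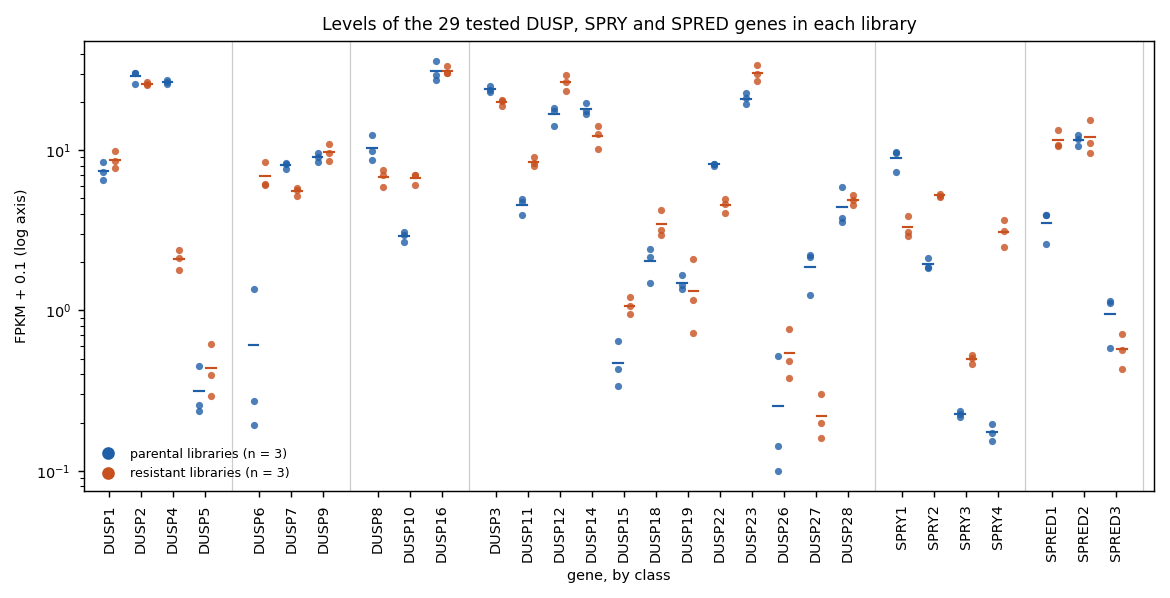
FPKM + 0.1 on a log axis for the 29 tested genes, with 1 point per library and a short line at the mean of the 3 parental (blue) and 3 resistant (orange) libraries. DUSP4, DUSP27 and SPRY1 lie lower and DUSP6, SPRY4, SPRY2 and SPRED1 lie higher in all resistant libraries, while DUSP2, DUSP16 and SPRED2 overlap.

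The nuclear, inducible MKPs are DUSP1, DUSP2, DUSP4 and DUSP5. DUSP4 (MKP-2; GRCh38, chr8:29333064-29350684) was at 25.9, 27.3 and 26.4 FPKM in parental cells and 2.03, 1.69 and 2.28 FPKM in resistant cells. It was high in each parental and low in each resistant library, and its mean was 13.3 times higher in parental cells (log2 fold change −3.67, standard error 0.15, adjusted p = 1.56e-05; limma, Benjamini-Hochberg). DUSP1 (MKP-1), the classic immediate early phosphatase of p38 and JNK, was at 6.43, 8.39 and 7.15 FPKM against 8.42, 7.61 and 9.7 FPKM. Its values overlapped between the groups and it did not pass the test (log2 fold change 0.23 with a standard error of 0.16, limma adjusted p = 0.292). DUSP2 (PAC-1), a phosphatase first described in activated lymphocytes, was at 25.6, 30.3 and 30.3 FPKM against 25.3, 25.7 and 26.7 FPKM. These values overlapped as well, at a log2 fold change of −0.15, with a standard error of 0.10 (limma adjusted p = 0.264). DUSP5, a nuclear phosphatase of ERK, stayed between 0.136 and 0.516 FPKM in all libraries. The sum over these 4 genes was 58.3 to 66.1 FPKM in the parental and 35.2 to 39.2 FPKM in the resistant libraries.

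The cytoplasmic, ERK-directed MKPs are DUSP6, DUSP7 and DUSP9, and each took a different course. DUSP6 (MKP-3; chr12:89347235-89352501), the phosphatase most selective for ERK1 and ERK2, was at 0.173, 1.27 and 0.0938 FPKM in parental cells and 6.02, 5.93 and 8.38 FPKM in resistant cells. All resistant values lay above all parental values, with a mean 13.2 times higher (log2 fold change 4.03, standard error 0.73, adjusted p = 0.00515; limma, Benjamini-Hochberg). Parental replicate 1 stood apart from the other parental libraries for this gene, and without it the log2 fold change was 4.88, against 3.47 to 4.11 with any other library left out. The low parental values correspond to about 12.1, 85.7 and 4.32 reads, so that the size of the increase depends on the pseudocount, with 2.43 at 1 FPKM and 4.53 at 0.01 FPKM. DUSP7 (MKP-X) was at 8.17, 8.08 and 7.57 FPKM against 5.7, 5.06 and 5.54 FPKM. It fell without overlap, by less than 2-fold (log2 fold change −0.54, standard error 0.12, adjusted p = 0.0126; limma, Benjamini-Hochberg). DUSP9 (MKP-4), which is known from placenta and insulin-responsive tissue, was at 9.48, 9.02 and 8.3 FPKM against 8.48, 10.8 and 9.44 FPKM and did not pass the test (log2 fold change 0.09 with a standard error of 0.13, limma adjusted p = 0.598).

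The JNK- and p38-directed MKPs are DUSP8, DUSP10 and DUSP16. DUSP10 (MKP-5; chr1:221701424-221742089) was at 2.99, 2.58 and 2.85 FPKM in parental cells and 5.97, 6.84 and 6.88 FPKM in resistant cells. It rose in each resistant library, 2.34 times on the means (log2 fold change 1.2, standard error 0.15, adjusted p = 0.00118; limma, Benjamini-Hochberg). DUSP8, a phosphatase of JNK, was at 8.61, 9.78 and 12.3 FPKM against 7.39, 5.82 and 6.94 FPKM. Its values did not overlap, and its fall was close to the threshold (log2 fold change −0.59, standard error 0.18, adjusted p = 0.0349; limma, Benjamini-Hochberg) and was no longer past it in 9 of the 15 alternatives without a fold requirement. KRTAP5-AS1, a gene on the opposite strand that overlaps the start of DUSP8, was at 0.854, 1.57 and 1.51 FPKM against 2.77, 3.16 and 3.25 FPKM. DUSP16 (MKP-7) had the highest mean of all 31 genes in both groups, at 27.4, 29.4 and 35.7 FPKM against 30.1, 33.1 and 30.1 FPKM. Its groups overlapped and its log2 fold change was 0.02, with a standard error of 0.12 (limma adjusted p = 0.913).

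Within each library the balance of the MKPs can be read without regard to the scaling between libraries. DUSP4 made up 22.5, 21.6 and 20.2% of the summed FPKM of the 10 MKPs in parental cells and 2.04, 1.64 and 2.14% in resistant cells. DUSP6 made up 0.15, 1.01 and 0.0716% and 6.05, 5.78 and 7.87%. The ratio of DUSP4 to DUSP6 was 149, 21.5 and 282 in parental and 0.337, 0.284 and 0.272 in resistant cells, so that DUSP4 was the more abundant of the pair in each parental library and DUSP6 in each resistant library. The sum of the 10 MKPs was 115.1 to 130.9 FPKM in the parental and 99.7 to 106.4 FPKM in the resistant libraries. The sum of all 24 DUSP genes was 219 to 233 FPKM in the parental and 214 to 216 FPKM in the resistant libraries.

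**Figure D2:**
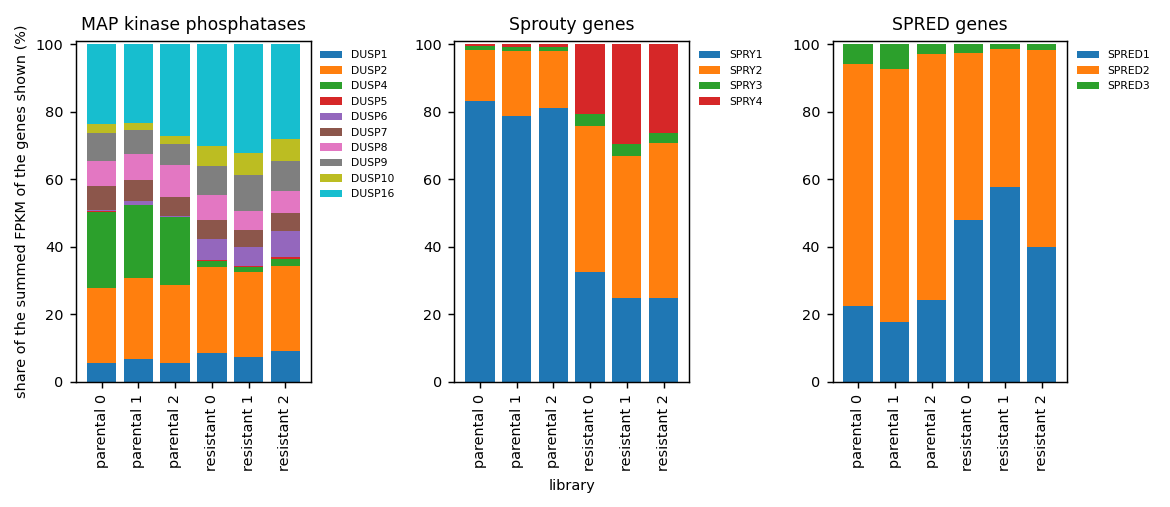
Share in percent of the summed FPKM of the 10 MKPs, the 4 Sprouty genes and the 3 SPRED genes that each gene takes in each of the 6 libraries. The DUSP4 segment is at least 20.2% in the parental and at most 2.14% in the resistant libraries, and SPRY1 goes from at least 78.6% to at most 32.4% of the Sprouty sum.

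All 4 Sprouty genes changed, 3 upward and 1 downward, where 44.4% of all genes tested changed. SPRY4 (chr5:142310427-142326455) was at 0.0545, 0.0712 and 0.0958 FPKM in parental cells and 2.4, 3.56 and 3.01 FPKM in resistant cells. It was below 0.1 FPKM in each parental library, where its values stand for about 5.24, 6.59 and 6.06 reads, and present in each resistant library (log2 fold change 4.14, standard error 0.32, adjusted p = 1.67e-04; limma, Benjamini-Hochberg). The log2 fold change of SPRY4 depends on the pseudocount, at 1.88 for 1 FPKM and 5.17 for 0.01 FPKM. SPRY4-AS1, a long non-coding RNA gene that overlaps the start of SPRY4 on the opposite strand, was listed at 0 in each parental library and was at 2.04, 1.17 and 2.22 FPKM in resistant cells, and its part in the SPRY4 result was not tested. SPRY2 (chr13:80335976-80341126), the best studied family member, was at 1.75, 1.77 and 2.03 FPKM against 5.03, 5.07 and 5.26 FPKM. The spread within each group was small beside the difference, and the mean was 2.76 times higher in the resistant cells (log2 fold change 1.42, standard error 0.17, adjusted p = 8.04e-04; limma, Benjamini-Hochberg). SPRY1 (chr4:123396795-123403760) went the other way, at 9.51, 7.19 and 9.66 FPKM against 3.76, 2.99 and 2.83 FPKM. Each resistant value of SPRY1 lay below each parental value (log2 fold change −1.43, standard error 0.19, adjusted p = 0.00142; limma, Benjamini-Hochberg). SPRY3 was low in both groups, at 0.115 to 0.137 FPKM against 0.362 to 0.426 FPKM, and its rise (log2 fold change 1.13, standard error 0.36, adjusted p = 0.0444; limma, Benjamini-Hochberg) was lost in 3 of the 14 alternatives that gave it a value, with a limma adjusted p of 0.155 after quantile normalization.

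The sums of the Sprouty transcripts overlapped between the groups, with 9.15 to 11.9 FPKM in the parental and 11.5 to 12 FPKM in the resistant libraries. SPRY1 made up 83.1, 78.6 and 81% of the sum in parental and 32.4, 24.8 and 24.7% in resistant cells. For SPRY2 the shares were 15.3, 19.4 and 17.1% against 43.4, 42.1 and 45.9%, and for SPRY4 0.476, 0.778 and 0.803% against 20.7, 29.6 and 26.2%. The leading Sprouty transcript was therefore SPRY1 in each parental library and SPRY2 in each resistant library.

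SPRED proteins bind neurofibromin, the product of NF1, and bring it to the membrane, where it switches RAS off. SPRED1 (chr15:38252836-38357249), the gene mutated in Legius syndrome, was at 3.85, 2.5 and 3.83 FPKM in parental cells and 10.7, 13.3 and 10.5 FPKM in resistant cells. It rose in each resistant library, 3.39 times on the means (log2 fold change 1.75, standard error 0.21, adjusted p = 9.86e-04; limma, Benjamini-Hochberg). SPRED2 was at 12.4, 10.5 and 11.5 FPKM against 11, 9.42 and 15.4 FPKM, with overlapping groups and a log2 fold change of 0.03, with a standard error of 0.20 (limma adjusted p = 0.92). SPRED3, the least studied of the family, was low, at 0.486 to 1.05 FPKM against 0.334 to 0.616 FPKM, and did not pass the test. SPRED2 held 71.8, 74.7 and 72.8% of the SPRED sum in parental and 49.3, 40.9 and 58.2% in resistant cells. The sum itself was 14 to 17.2 FPKM against 22.3 to 26.4 FPKM, higher in each resistant library.

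Atypical DUSP genes encode small phosphatases that lack the kinase-binding domain of the MKPs, and many of them act on other substrates. Of 14 such genes 12 were tested, 4 rose and 4 fell. The changed share was 66.7%, against 44.4% of all genes. DUSP27 (chr1:167094075-167129165), renamed STYXL2 in GENCODE v44 and known as a catalytically inactive member from muscle, was at 1.16, 2.04 and 2.11 FPKM in parental cells and 0.202, 0.0601 and 0.10 FPKM in resistant cells. It was the only atypical gene to fall at least 2-fold (log2 fold change −3.09, standard error 0.43, adjusted p = 0.00161; limma, Benjamini-Hochberg), and its resistant values rest on about 14.1, 3.87 and 5.69 reads, so that its log2 fold change was −1.29 for a pseudocount of 1 FPKM and −3.87 for 0.01 FPKM. DUSP22, a JNK pathway phosphatase whose locus is rearranged in some T cell lymphomas, was at 8.11, 8.12 and 7.87 FPKM against 3.94, 4.82 and 4.51 FPKM. Its values were tight in each group and did not overlap (log2 fold change −0.85, standard error 0.14, adjusted p = 0.00299; limma, Benjamini-Hochberg).

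Smaller decreases were found in DUSP14 and DUSP3. DUSP14, a regulator of signalling to TAK1, was at 19.7, 16.6 and 17.4 FPKM against 14, 12.4 and 10.1 FPKM (log2 fold change −0.56, limma adjusted p = 0.0231). DUSP3 (VHR), a phosphatase of ERK and JNK, was at 23.5, 25 and 22.9 FPKM against 20.5, 18.6 and 20 FPKM (log2 fold change −0.27, limma adjusted p = 0.0425). Neither gene overlapped between the groups. The DUSP3 call was lost under all 3 other scalings, with limma adjusted p values of 0.121, 0.202 and 0.151, and in 9 of the 15 alternatives in all. The DUSP14 call was lost in 4 of the 15, among them median-of-ratios scaling, at 0.0654, and the omission of parental replicate 0, parental replicate 2 or resistant replicate 1.

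Among the atypical genes that rose, DUSP11, DUSP12 and DUSP23 were the abundant ones. DUSP11 (PIR1), a phosphatase of RNA 5′ ends, was at 4.84, 4.62 and 3.81 FPKM against 8.96, 7.87 and 8.16 FPKM (log2 fold change 0.90, limma adjusted p = 0.00346). DUSP12, which carries a zinc-binding domain, was at 17.5, 18.3 and 14.1 FPKM against 26.5, 23.2 and 29.3 FPKM (log2 fold change 0.66, limma adjusted p = 0.00975). All resistant values of both genes exceeded all parental values. DUSP23 (VHZ), a small phosphatase with little beyond its catalytic domain, was at 21, 22.4 and 19.2 FPKM against 29.7, 33.7 and 27 FPKM, again without overlap (log2 fold change 0.53, limma adjusted p = 0.0106). DUSP15 (VHY), at 0.238 to 0.541 FPKM against 0.845 to 1.11 FPKM, passed the test at an adjusted p of 0.035 in limma, and lost it in 8 of the 14 alternatives without a fold requirement that gave it a value. Its values rest on about 11.3, 4.81 and 4.53 reads in parental and 17.4, 14.1 and 16.2 reads in resistant libraries.

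DUSP18, DUSP19, DUSP26 and DUSP28 did not pass the test. DUSP18, which is targeted to mitochondria, was at 2.07, 1.39 and 2.32 FPKM against 4.14, 2.87 and 3.09 FPKM, without overlap, and missed the threshold at an adjusted p of 0.0557 in limma. It was past the threshold with 2 of the other scalings, at 0.0356 and 0.0416, and among genes of at least 1 FPKM, at 0.046. It was not past it with quantile normalization, at 0.066, or with the replicate block, at 0.0661. With 1 library left out its limma adjusted p was 0.0664 to 0.176, so that it did not pass in any of these fits. The gene SLC35E4 lies on the opposite strand over DUSP18, at 4.03, 3.52 and 3.94 FPKM against 1.38, 1.87 and 2.37 FPKM, and the pseudogene RPL13AP26 lies on the same strand, at 0.372, 0.406 and 0.177 FPKM against 1.11, 1.53 and 0.856 FPKM. DUSP19, a regulator of the JNK pathway, was at 1.56, 1.26 and 1.33 FPKM against 0.625, 1.99 and 1.07 FPKM. The resistant values of DUSP19 lay on both sides of the parental values. DUSP28 was at 3.67, 5.82 and 3.46 FPKM against 5.17, 4.47 and 4.77 FPKM, inside the transcribed region of ANKMY1 on the opposite strand, which was at 16, 13.7 and 11.8 FPKM against 18.5, 20.7 and 23.7 FPKM. DUSP26, a phosphatase of brain and endocrine tissue, was at 0 to 0.419 FPKM against 0.281 to 0.664 FPKM, with 1 parental value inside the resistant range. Its parental values rest on about 1.36, 12.8 and 0 reads. The limma adjusted p of DUSP26 was 0.158 with all libraries and 0.0196 without the library of that value, parental replicate 1. With any other library left out it was 0.197 to 0.353.

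**Figure D3:**
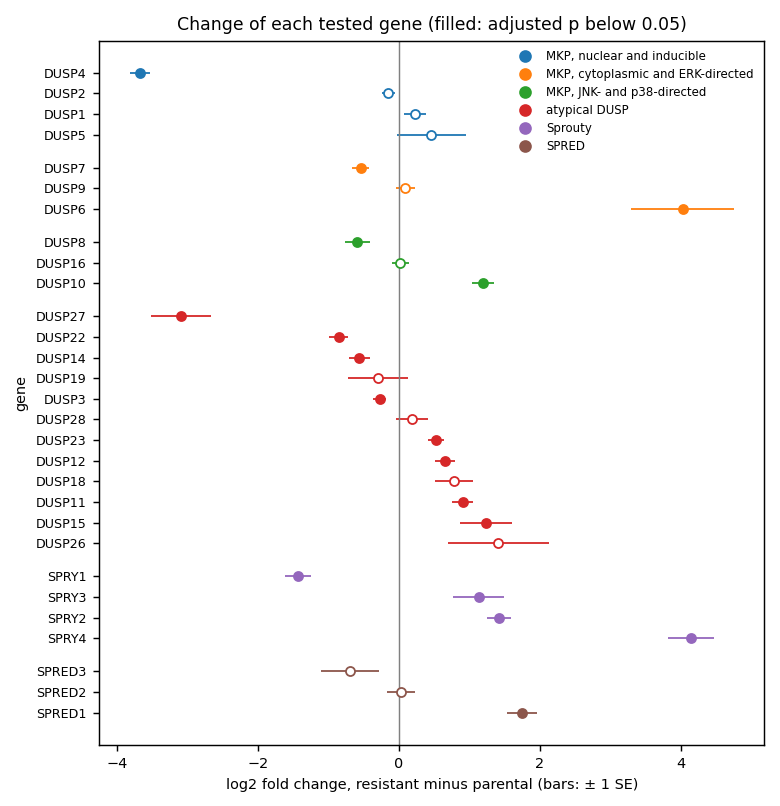
Log2 fold change of log2(FPKM + 0.1), resistant minus parental, with bars of 1 standard error (limma) for the 29 tested genes by class, filled where the adjusted p is below 0.05. DUSP4 at −3.67 and DUSP27 at −3.09 lie farthest to the left, SPRY4 at 4.14 and DUSP6 at 4.03 farthest to the right, and each class with more than 1 changed gene has changes on both sides of 0.

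Promoter sequence is shown for DUSP6 and SPRY2, which rose, and for DUSP1 and DUSP8, which hold the only matches to the cAMP response element among the members. The sequences are the 150 bases before the first start site that RefSeq lists for each gene (GRCh38.p14, minus strand for all of them, 5′ to 3′), at chr12:89352502-89352651 for DUSP6, chr13:80341127-80341276 for SPRY2, chr5:172771196-172771345 for DUSP1 and chr11:1572272-1572421 for DUSP8. Capitals mark a match to a motif searched.
DUSP6: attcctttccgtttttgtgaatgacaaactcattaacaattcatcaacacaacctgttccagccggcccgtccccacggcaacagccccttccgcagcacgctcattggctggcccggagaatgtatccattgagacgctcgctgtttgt
SPRY2: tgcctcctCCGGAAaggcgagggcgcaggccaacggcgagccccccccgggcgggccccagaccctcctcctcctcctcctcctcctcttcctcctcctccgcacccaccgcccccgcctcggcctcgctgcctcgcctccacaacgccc
DUSP1: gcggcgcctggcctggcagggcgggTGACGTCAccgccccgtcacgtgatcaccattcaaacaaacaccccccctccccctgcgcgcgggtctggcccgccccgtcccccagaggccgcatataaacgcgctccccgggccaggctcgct
DUSP8: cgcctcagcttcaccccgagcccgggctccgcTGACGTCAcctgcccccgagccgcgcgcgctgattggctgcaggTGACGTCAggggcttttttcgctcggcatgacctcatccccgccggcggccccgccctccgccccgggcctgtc

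The motifs, searched on both strands of the 250 bases before each start site, were TGACGTCA (the cAMP response element), TGANTCA (the AP-1 site), CCGGAA (a core of ETS factor sites) and AGAACA (the core of an androgen response element). Of the 31 genes, 27 matched a RefSeq promoter, with 40 start sites in all. TGACGTCA was found at DUSP1, 118 to 125 bases before the start, and at 2 places before DUSP8, and it occurs in 1.64% of 34796 promoters. CCGGAA was found before SPRY2, SPRY1 and DUSP15 and in 14.5% of all promoters. TGANTCA was found before SPRED3 alone and in 6.59% of all promoters. AGAACA was found before 6 of the genes, namely DUSP9, DUSP11, DUSP13, DUSP21, DUSP27 and SPRY2. By start site this was 9 of 40, or 22.5%, against 12.4% of all promoters. For TGACGTCA, CCGGAA and TGANTCA the shares of the 40 start sites were 5%, 7.5% and 2.5%. Close start sites of 1 gene can count the same match more than once. SPRY2, which rose, and SPRY1, which fell, thus shared a match to CCGGAA, and none of the motifs stood in the DUSP6 window.

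The rest of the pathway was read from lists of the cascade itself, its other inhibitors and its transcriptional targets. Of 21 genes of the RAS-ERK cascade, all were tested, 6 rose and 4 fell, with a median log2 fold change of 0.01. The changed share was 47.6%, close to the 44.4% of all genes. Against 28.5% of all genes, 1 gene of this list changed at least 2-fold. This was SOS1, the exchange factor that loads RAS with GTP, at 9.15, 8.93 and 5.27 FPKM against 20.6, 19.3 and 21.3 FPKM (log2 fold change 1.42, limma adjusted p = 0.00283). RRAS2, a relative of RAS, and MAP2K5, the kinase above ERK5, fell by 0.94 and 0.93 on the log2 scale. The count of 10 dropped to 6 without resistant replicate 2 and to 6 when no variance trend was used.

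Of 14 genes of the JNK and p38 cascades, 6 rose and 2 fell, with a median log2 fold change of 0.29. The changed share was 57.1%, against 44.4% of all genes. The largest increases were in MAPK11, the kinase p38 beta, at 7.29, 9.67 and 6.62 FPKM against 39, 36.6 and 37.2 FPKM (log2 fold change 2.26, limma adjusted p = 9.28e-05), and in MAP3K7 (TAK1), at 3.69, 3.0 and 3.6 FPKM against 13.2, 13.6 and 14 FPKM (log2 fold change 1.96). MAP2K3, which activates p38, fell from 49.9 ± 3.94 to 24.5 ± 2.23 FPKM (SD, n = 3 each; log2 fold change −1.02, limma, Benjamini-Hochberg adjusted p = 4.67e-04). Without resistant replicate 1 or 2, 5 genes of this list passed in place of 8, and 5 without a variance trend.

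Of 13 other inhibitors of RAS-ERK signalling, 4 rose and 2 fell, with a median of −0.12. The changed share was 46.2%, close to the 44.4% of all genes. LRIG1, which lowers the amount of ERBB receptors, was at 43.8, 51.3 and 40 FPKM in parental cells and 4.31, 5.37 and 6.56 FPKM in resistant cells (log2 fold change −3.05, limma adjusted p = 5.73e-05). DAB2IP, which speeds the inactivation of RAS, was at 3.19, 2.99 and 5.11 FPKM against 13.9, 12.7 and 17.7 FPKM (log2 fold change 1.97), and IL17RD (SEF), an inhibitor of fibroblast growth factor signalling, at 1.46, 1.61 and 1.14 FPKM against 4.92, 4.33 and 4.43 FPKM (log2 fold change 1.64). The groups of these 3 genes did not overlap.

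Of 11 genes used as transcriptional readouts of ERK, 10 were tested, 7 rose and 1 fell, and the median log2 fold change was 2.59. Of those tested, 80% changed, against 44.4% of all genes. Like the other lists, this one was chosen with earlier results of these data known, so that its direction may not be independent of them. ETV4, an ETS factor induced by fibroblast growth factor signalling, was at 0.0256, 0.0582 and 0.0368 FPKM in parental cells and 5.91, 8.11 and 6.17 FPKM in resistant cells (log2 fold change 5.60 with a standard error of 0.29, limma adjusted p = 3.79e-05). ETV5, its close relative, was at 0.053, 0 and 0.448 FPKM against 3.77, 3.44 and 3.87 FPKM (log2 fold change 4.22), and EPHA4, a receptor kinase, at 0.163, 0.0473 and 0 FPKM against 0.88, 5.01 and 1.92 FPKM (log2 fold change 3.78). The exception was PHLDA1, named after its values were seen, at 5.74, 7.05 and 6.44 FPKM against 0.782, 0.678 and 0.693 FPKM (log2 fold change −2.99, limma adjusted p = 8.55e-05). The counts of this list were 7 up and 1 down in each alternative except the filter at 1 FPKM, which left 6 and 1. DUSP4, often counted among these readouts, fell, as PHLDA1 did, and DUSP6, SPRY2 and SPRY4 rose, as ETV4 and ETV5 did. SPRY1 fell, however, and DUSP1 and DUSP5 did not pass the test, nor did MYC and EPHA2 of the readouts. These are transcript levels, and the cause of their directions was not tested.

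**Figure D4:**
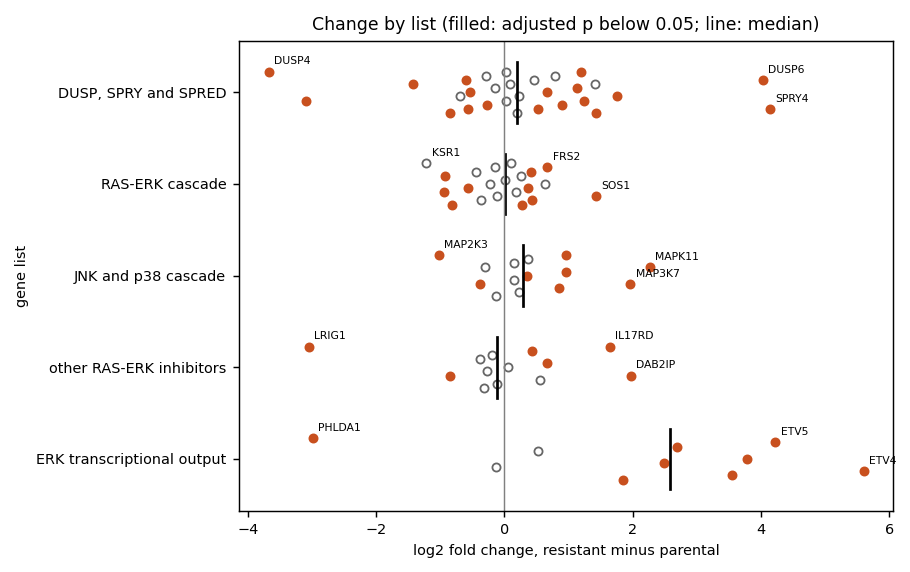
Log2 fold change, resistant minus parental, of each tested gene in 5 lists, filled where the adjusted p (limma, Benjamini-Hochberg) is below 0.05, with a line at the median of each list. The medians of the DUSP, SPRY and SPRED genes, of the cascades and of the other inhibitors lie between −0.12 and 0.29, and that of the ERK readouts at 2.59. The lists were chosen with earlier results of these data known.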

How the data were processed

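RNA-Seq of total RNA from 3 parental and 3 enzalutamide resistant C4-2B libraries was analysed. The authors sequenced single-end reads of 50 bp and, per the labels, made the values with Cufflinks 2.2.1. The deposited table holds 1 value per gene and library, which is read as FPKM because Cufflinks reports that unit, although no unit is named in it. The study's methods give TrimGalore, STAR, GRCh38 and GENCODE, while the submitters' processing notes name Trimmomatic 0.27, FastQC 0.10.1 and mm10. The coordinates in the table are those of human GRCh38. The labels name a stranded and another TruSeq kit, and whether reads were assigned by strand is not given in the sources used here, so that genes with an antisense partner are uncertain.

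All 6 columns were used. Log2(FPKM + 0.1) was fitted with limma 3.58.1 (lmFit, eBayes with trend) in R 4.3.3 for 24468 genes whose mean over the libraries reached 0.1 FPKM, and two-sided p values were adjusted by the Benjamini-Hochberg method. Read counts behind a value were estimated with the GENCODE v44 canonical transcript and fragments of 200 bases. The fit was tested on simulated data. Genes described per library were members with a group mean of at least 1 FPKM, and the 3 changed genes with the largest log2 fold change of each pathway list at that level. The members and the lists were chosen with earlier results of these data known. The alternatives covered the pseudocount, the filter, the scaling, the variance trend, a replicate block, a fold requirement and each library left out. No pair of libraries was identical. Python 3.11.15, pandas 2.3.3 and matplotlib 3.10.9 were used for tables and figures. The table gives no read counts, so no counting intervals are given.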

Additional observations from a re-analysis of the deposited data

How the results depend on the processing

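Of the 18 changed members, 13 stayed past the threshold in each of the 15 alternatives without a fold requirement that gave them a value, and DUSP3, DUSP8, DUSP14, DUSP15 and SPRY3 lost it in at least 1. Omitting 1 library at a time gave 14 to 16 changed members. Of 429 refitted member values, 386 kept direction and side of the threshold, 33 lost it, 4 gained it and 6 changed sign. The sign changes were in members that had not passed: without a library, DUSP16 ranged from −0.062 to 0.13, DUSP19 from −0.69 to 0.076 and SPRED2 from −0.17 to 0.18 on the log2 scale, and the cause was not tested.

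A requirement of 2-fold left 10 of the 18 members, 1 of 10 genes of the RAS-ERK cascade, 3 of 8 of the JNK and p38 cascades, 3 of 6 other inhibitors and 6979 of 10868 genes in all. Without the variance trend the cascade lists had 6 and 5 changed genes. Omitting 1 library at a time gave 6 to 10 and 5 to 7. No pairing by replicate number was visible, since deviations of libraries with the same number correlated at 0.00802, 0.0165 and −0.00301. These values include many genes with few reads and cannot settle whether the libraries were prepared in pairs. With the number as a replicate block, 14 members and 9463 genes passed, and DUSP3, DUSP8, DUSP15 and SPRY3 did not. Depth limits DUSP5, DUSP15, DUSP26, SPRY3 and the low groups of DUSP6, SPRY4 and DUSP27, which rest on few reads.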

Other observations

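The other tested genes of the 11 ERK readouts, which are already part of the counts given for that list, are named here after their values were seen. CCND1, which encodes cyclin D1, was at 296, 257 and 268 FPKM in parental cells and 1678, 1787 and 1812 FPKM in resistant cells (log2 fold change 2.68, limma with Benjamini-Hochberg adjusted p = 4.69e-06). FOS, an immediate early gene, was at 1.07, 1.32 and 1.93 FPKM against 6.99, 8.31 and 9.87 FPKM (log2 fold change 2.49), and EGR1, another, at 0.127, 0.0202 and 0.105 FPKM against 2.45, 1.56 and 2.05 FPKM (log2 fold change 3.55). IER3 was lower in level, at 0.106, 0.0583 and 0.231 FPKM against 0.753, 0.669 and 0.657 FPKM (log2 fold change 1.84). EPHA2, a receptor kinase, did not pass the test, at 9.46, 6.33 and 7.66 FPKM against 8.72, 14.1 and 11.4 FPKM (log2 fold change 0.53, limma adjusted p = 0.105). MYC did not pass it either, at 207, 179 and 196 FPKM against 160.1, 187 and 186 FPKM (log2 fold change −0.13, limma adjusted p = 0.305). DUSP1, the phosphatase that is usually induced along with FOS and EGR1, did not pass the test.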
